A study of Mus musculus with 12 samples.

Results

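The genes of cholesterol and fatty acid synthesis were followed in sorted cells of the mouse small-intestinal crypt. The set holds 35 genes named by symbol, and all 35 were found among the 55414 rows of the count table. They fall into the mevalonate pathway (8 genes), the steps from squalene to cholesterol (11), the regulators of the SREBP transcription factors (5), fatty acid synthesis (9) and sterol transport (2). All 35 had enough reads to be tested, among 13057 genes of the table that had. The libraries came from crypts of young adult C57BL/6J mice, from which Paneth cells (PCs) and the other crypt cells (non-PCs) were sorted. WT mice were compared with GRvillinKO mice, here called GRKO, which lack the glucocorticoid receptor gene Nr3c1 in cells that express villin, the intestinal epithelium. The sources name no treatment, and each of the 4 groups, WT PCs, GRKO PCs, WT non-PCs and GRKO non-PCs, held 3 libraries. The PC gate took cells positive for CD24 and cKIT, negative for the endothelial, leukocyte and erythroid antigens CD31, CD45 and TER119, and with a side scatter from medium to high. The sources used here give no gate for the non-PCs. Villin is active throughout the epithelium, so the deletion is directed to PCs and non-PCs alike. Whether the WT mice were littermates or carried floxed alleles is not stated.

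Cells build cholesterol from acetyl-CoA through mevalonate, isoprenoid diphosphates, squalene and lanosterol, and build fatty acids from the same acetyl-CoA through malonyl-CoA. Transcription of nearly all of these enzymes is driven by SREBP factors, encoded by Srebf1 and Srebf2. When sterols in the endoplasmic reticulum are low, Scap carries the SREBP precursors to the Golgi for cleavage, and when sterols are high the Insig proteins hold Scap back. Dividing crypt cells need both lipids for new membranes, whereas villus enterocytes take up dietary lipid, re-esterify it and export it.

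The promoters that hold a sterol regulatory element, the site bound by SREBP factors, are shown because they are the best known feature that these genes share. The 250 bases before the annotated start of each canonical transcript were searched on both strands in GRCm39, the build of the counts, with the GENCODE vM39 annotation. The letters TCACNCCAC were found in 4 of 35 members, which is 11.4%, and in 1.11% of the 21751 promoters searched. The promoters of 3 of them, Hmgcs1, Acss2 and Acaca, are given 5′ to 3′ on the strand of the gene, ending at the last base before the start, with these letters in capitals.
Hmgcs1: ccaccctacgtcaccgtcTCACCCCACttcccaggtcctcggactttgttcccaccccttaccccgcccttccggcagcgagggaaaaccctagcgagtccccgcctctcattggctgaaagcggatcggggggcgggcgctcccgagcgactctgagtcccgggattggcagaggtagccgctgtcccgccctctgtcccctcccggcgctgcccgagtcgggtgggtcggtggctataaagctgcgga
Acss2: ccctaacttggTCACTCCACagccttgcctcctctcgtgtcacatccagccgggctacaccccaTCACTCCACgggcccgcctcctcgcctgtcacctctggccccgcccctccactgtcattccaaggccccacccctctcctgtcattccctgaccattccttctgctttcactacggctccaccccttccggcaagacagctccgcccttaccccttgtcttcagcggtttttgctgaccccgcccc
Acaca: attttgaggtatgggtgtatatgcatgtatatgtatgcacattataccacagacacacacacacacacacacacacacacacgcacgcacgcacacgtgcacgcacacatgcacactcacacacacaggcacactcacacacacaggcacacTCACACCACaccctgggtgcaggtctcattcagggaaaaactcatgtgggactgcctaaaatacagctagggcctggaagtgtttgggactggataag
The windows lie at chr13:120151732-120151981, plus strand (Hmgcs1), chr2:155359618-155359867, plus strand (Acss2) and chr11:84063698-84063947, plus strand (Acaca). The element was centred 228 bases before the start in Hmgcs1 and 94 in Acaca, and Acss2 held it at 235 and 182 bases. Acaca has several promoters, and the window of its canonical transcript is rich in CA repeats. The CCAAT box, whose binding factor NF-Y acts beside SREBP, was found in 19 members (54.3%) against 36.5% of all promoters. The E-box CACGTG was found in 6 members (17.1%) against 6.26%. The palindromic glucocorticoid response element was in none of the 35 windows and in 0.299% of all promoters. A match of letters is a description and not a bound site, and no match says only that the letters are absent from these windows.

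The libraries held 11126297 to 15910292 counts. Nr3c1 was lower in every GRKO library than in every WT library of the same fraction, at 5.82 to 15.4 CPM (counts scaled to library size) against 40.8 to 54.1 in PCs and at 13.1 to 24.5 against 110.4 to 131 in non-PCs. Levels throughout are CPM after TMM scaling, which sets libraries on a common scale through the bulk of their genes. The 8 Paneth markers, led by Lyz1 and Defa24, summed to 458700 to 701700 CPM in the PC libraries and to 376 to 1193 CPM in the non-PC libraries. The 9 enterocyte markers summed to 25280 to 27850 CPM in WT non-PCs but to 5363 to 6606 CPM in GRKO non-PCs, and to 907 to 2637 CPM in PCs of either genotype. Proliferation markers (7 genes) summed to 885 to 1011 CPM in WT non-PCs and 1514 to 1582 CPM in GRKO non-PCs. Tuft markers (6 genes) summed to 3.12 to 8.78 CPM in WT non-PCs, where Gfi1b and Il25 had no counts, to 63.5 to 249 CPM in GRKO non-PCs, to 161 to 439 CPM in WT PCs and to 407 to 1087 CPM in GRKO PCs. Stem markers (5 genes) summed to 8189 to 8552 CPM in WT PCs, 4393 to 6387 CPM in GRKO PCs, 3784 to 5079 CPM in WT non-PCs and 5017 to 6384 CPM in GRKO non-PCs. Xist, expressed from the inactive X chromosome, stood at 193 and 214 CPM in the WT libraries numbered 2 and at 0.427 CPM or less in the other 10. No GRKO library had such a level, so the genotypes were not matched in Xist. The part of this mismatch in the genotype differences was not tested.

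**Figure D1:**
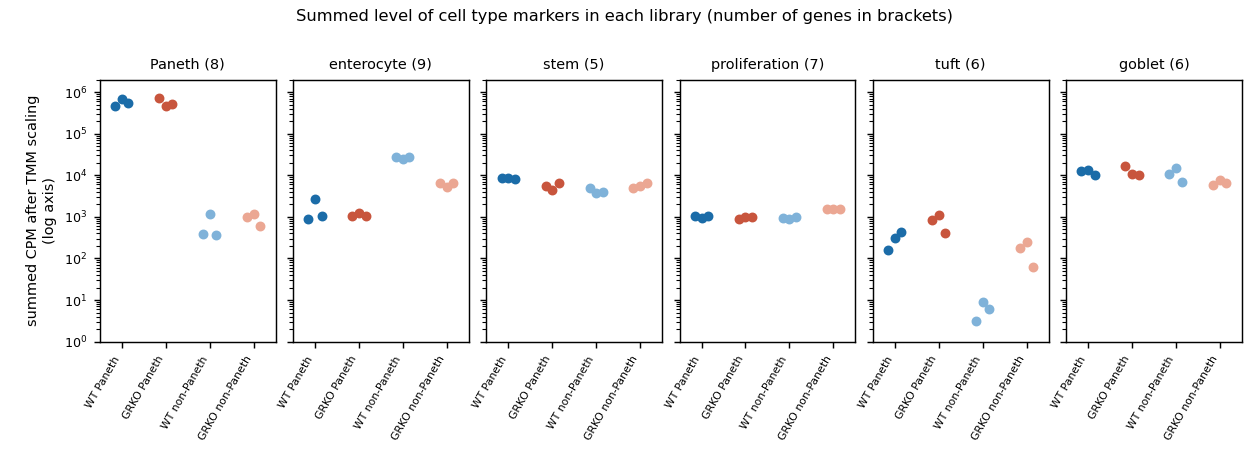
Summed level of the markers of 6 cell types (CPM after TMM scaling, log axis) in each of the 12 libraries, with a point per library and colours for the 4 groups. The enterocyte sum is 25280 to 27850 CPM in WT non-PCs and 5363 to 6606 CPM in GRKO non-PCs, and the tuft sum is lowest in WT non-PCs.

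The genes span a wide range of levels. Per kilobase of exon, the median member stood at 4.59 CPM in WT PCs, 5.34 in GRKO PCs, 7.79 in WT non-PCs and 8.23 in GRKO non-PCs. Scd2, a stearoyl-CoA desaturase, had the highest level per kilobase over the 12 libraries at 27.8 CPM. Hmgcs1, which makes hydroxymethylglutaryl-CoA, followed at 24.2 CPM per kilobase, ahead of the sterol carrier Stard4 at 20.9, Srebf2 at 16.8 and Srebf1 at 16.2. At the other end were Scd1 at 0.345 and the cholesterol exporter Abca1 at 0.488 CPM per kilobase. The length was that of all annotated exons merged, which for some genes far exceeds the canonical transcript (14575 against 4410 bases in Acly). The order therefore depends on the length used, and Acly ranked 10 per kilobase but 3 by CPM. The order was similar in the groups at the top but not throughout, as Scd2 ranked 4 in WT PCs and 1 in GRKO PCs, and Elovl6 ranked 22 in WT PCs and 9 in WT non-PCs. The spread between the 3 libraries of a group was small for most members, with a median coefficient of variation of 15.2% in WT PCs, 12.7% in GRKO PCs, 11.3% in WT non-PCs and 9.55% in GRKO non-PCs. It was widest for Scd1 in GRKO PCs (114.6%) and GRKO non-PCs (73.8%), Abca1 in WT non-PCs (60.4%) and Me1 in WT PCs (55.7%). For some genes the level is uncertain because reads that fit several places are not counted. Of all windows of 100 bases in the canonical transcript, 89.2% occur elsewhere in the genome for Idi1, 51.2% for Acaca, 24.8% for Fdps, 17.9% for Me1, 17.1% for Acat2 and 16.7% for Insig1.

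**Figure D2:**
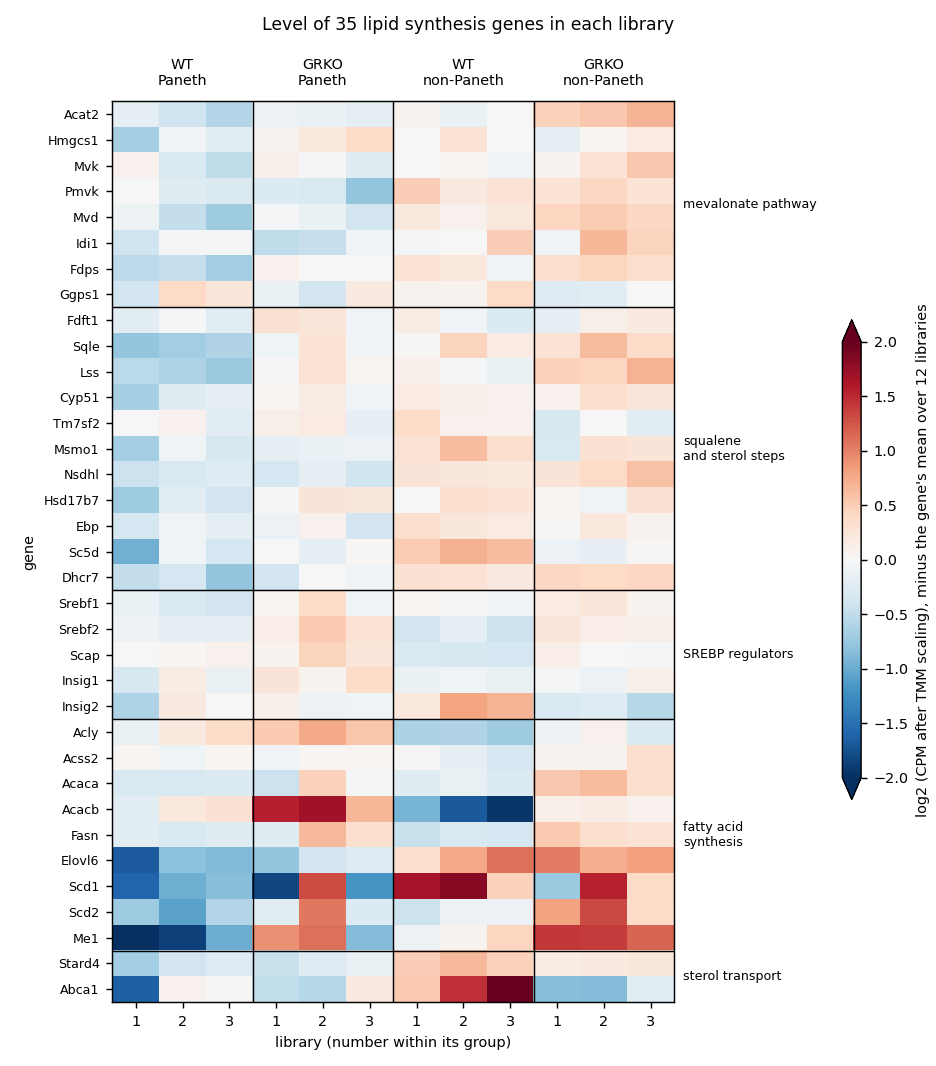
Level of the 35 genes (rows, by role) in the 12 libraries (columns, by group), as the log2 of CPM after TMM scaling minus the mean of the gene over the 12 libraries, with colours that end at 2 in either direction. Most rows of the mevalonate and sterol steps are blue in WT PCs, while Fasn, Acaca, Scd2, Acacb and Me1 are redder in GRKO than in WT non-PCs.

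In WT mice the sterol pathway was lower in PCs than in the other crypt cells. Of the 35 members, 20 were lower in WT PCs and 3 were higher. Among all genes tested, 26.7% were lower and 24.0% were higher by the same rule, an adjusted p under 0.05 in edgeR's quasi-likelihood test. The median log2 fold change of the members was -0.48, against 0.01 over all genes. All 19 genes of the mevalonate and sterol steps had a negative fold change, 14 of them past the threshold, whereas fatty acid synthesis was split, with 3 genes lower and 2 higher of 9. In bulk libraries, fewer cells of a type with much of an RNA and less of that RNA per cell cannot be told apart.

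In the mevalonate pathway 5 of 8 genes were lower in WT PCs. They were Acat2, which joins acetyl-CoA units, Hmgcs1, the phosphomevalonate kinase Pmvk, the decarboxylase Mvd and Fdps, which makes farnesyl diphosphate, with log2 fold changes from -0.69 (Fdps) to -0.36 (Acat2) and adjusted p-values from edgeR of 0.00546 to 0.0454. Mvk, Idi1 and Ggps1, with -0.21, -0.31 and -0.07, missed the threshold and their groups overlapped.

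Of the 11 genes of the squalene and sterol steps 9 were lower in WT PCs. Sqle, the squalene epoxidase at chr15:59186869-59203043, stood at 36.0, 37.9 and 40.7 CPM in WT PCs and at 62.7, 84.0 and 68.7 CPM in WT non-PCs. No PC library reached the lowest non-PC library, and the level was 1.88-fold lower (log2 fold change -0.91, SE 0.14, adjusted p = 8.15e-05, edgeR). Sc5d, the desaturase of a late sterol step at chr9:42162891-42175605, stood at 28.8, 52.8 and 43.8 CPM in WT PCs and at 79.8, 91.8 and 85.9 CPM in WT non-PCs. The groups were again apart, and the difference was 2.06-fold (log2 fold change -1.04, SE 0.17, adjusted p = 0.000105, edgeR). Lanosterol synthase (Lss), the demethylase Cyp51, the enzymes that strip methyl groups from the sterol ring (Msmo1, Nsdhl and Hsd17b7), the isomerase Ebp and the last reductase Dhcr7 were lower with log2 fold changes from -0.79 (Dhcr7) to -0.45 (Ebp). Only Fdft1, the squalene synthase, at -0.10, and the reductase Tm7sf2, at -0.22, missed the threshold in this list.

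Of the 5 regulators 1 was higher and 1 was lower in WT PCs, against 24.0% and 26.7% of all genes. Srebf2, the factor of the sterol genes, had a log2 fold change of 0.19 (adjusted p = 0.201, edgeR), and Srebf1, the factor of the fatty acid genes, one of -0.28 (adjusted p = 0.0822, edgeR). Scap, the escort of the SREBP precursors, stood at 63.3, 65.5 and 67.9 CPM in WT PCs and at 52.6, 51.3 and 50.2 CPM in WT non-PCs. It was 1.28-fold higher in PCs (log2 fold change 0.35, SE 0.11, adjusted p = 0.0171, edgeR) but had a log2 fold change of -0.35 when libraries were scaled by their totals only. Insig2 stood at 13.7, 23.9 and 20.8 CPM in WT PCs and at 24.4, 36.3 and 33.7 CPM in WT non-PCs. Its level was lower in PCs (log2 fold change -0.70, SE 0.19, adjusted p = 0.00707, edgeR), while Insig1 had a log2 fold change of 0.02.

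Within fatty acid synthesis Acly and Acacb were higher and Elovl6, Scd1 and Me1 lower in WT PCs. Acly, which splits citrate into cytosolic acetyl-CoA, stood at 138, 175 and 196 CPM in WT PCs and at 97.7, 101 and 92.8 CPM in WT non-PCs, so that every PC library was above every non-PC library (log2 fold change 0.80, SE 0.14, adjusted p = 0.000197, edgeR). Acacb, the acetyl-CoA carboxylase of the outer mitochondrial membrane at chr5:114284307-114388822, stood at 7.03, 9.52 and 10.2 CPM in WT PCs and at 4.33, 2.56 and 2.14 CPM in WT non-PCs, 2.97-fold higher in PCs (log2 fold change 1.57, SE 0.29, adjusted p = 0.000406, edgeR). Acaca, the cytosolic carboxylase, and Fasn, the synthase itself, differed little, with log2 fold changes of -0.08 and 0.11 and overlapping groups. Scd2, the more abundant desaturase, had a log2 fold change of -0.56 and missed the threshold (adjusted p = 0.221, edgeR). Elovl6, the elongase of palmitate, stood at 19.6, 35.2 and 33.8 CPM in WT PCs and at 78.7, 106 and 134 CPM in WT non-PCs (log2 fold change -1.85, SE 0.23, adjusted p = 1.69e-05, edgeR). Scd1, a desaturase with few reads, stood at 0.57, 0.866 and 0.946 CPM in WT PCs and at 5.34, 6.04 and 2.35 CPM in WT non-PCs (log2 fold change -2.53, SE 0.83, adjusted p = 0.0247, edgeR). Me1, the malic enzyme that supplies NADPH, stood at 0.949, 1.61 and 2.96 CPM in WT PCs and at 5.41, 6.16 and 7.91 CPM in WT non-PCs (log2 fold change -1.85, SE 0.49, adjusted p = 0.00711, edgeR). The groups did not overlap in any of these 3 genes.

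Both transport genes were lower in WT PCs. Stard4, a carrier that moves cholesterol between membranes, stood at 76.7, 94.6 and 103 CPM in WT PCs and at 174, 193 and 169 CPM in WT non-PCs, 1.95-fold lower in PCs (log2 fold change -0.97, SE 0.13, adjusted p = 1.38e-05, edgeR). Abca1, which loads cholesterol onto lipoproteins, at chr4:53030787-53159900, stood at 1.42, 4.70 and 4.50 CPM in WT PCs and at 6.36, 12.3 and 22.8 CPM in WT non-PCs, 3.99-fold lower in PCs (adjusted p = 0.00507, edgeR). The 3 WT non-PC libraries of Abca1 spread widely, and the lowest was still above the highest PC library.

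When each library of WT PCs and WT non-PCs was left out in turn, 14 of these 23 calls were made every time, Sqle, Lss, Sc5d, Dhcr7, Elovl6, Me1, Stard4, Abca1, Acly and Acacb among them. Of the other 9, Acat2, Hmgcs1 and Scd1 each missed the threshold in 5 of the 6 fits. Acat2 reached an adjusted p of 0.216 without WT non-PC library 1, Hmgcs1 one of 0.331 without WT non-PC library 2 and Scd1 one of 0.1 without WT PC library 1. Over the whole table, these fits called from 5878 of 13285 genes (without WT non-PC library 2) to 6498 of 13361 (without WT PC library 1). How many of all called genes were kept in every fit was not counted, here or in the comparisons below. Scaling by library totals only moved the median of all genes to -0.68 in this comparison, and 32 members were then lower and 1 was higher. The enterocyte markers moved the same way as the sterol genes, with 9 of 9 lower in WT PCs and a median log2 fold change of -5.21, as did 6 of 7 enteroendocrine markers (median -1.38). The stem markers moved the other way, with 5 of 5 higher, and so did 5 of 5 tuft markers tested (median 5.93). Their part in the difference was not tested.

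In GRKO mice the same comparison of the fractions called 13 members. Of the 35, 11 were lower in GRKO PCs than in GRKO non-PCs and 2 were higher, against 21.2% and 18.0% of all genes, and the median was -0.23 against -0.08 over all genes. In the mevalonate and sterol steps 8 of 19 genes were lower, with the largest differences in Pmvk (-0.77), Nsdhl (-0.73), Idi1 (-0.71) and Acat2 (-0.71). The groups of Idi1 overlapped. Acly (0.71) and Acacb (1.25) were again higher in PCs and Elovl6 (-1.31) again lower, while Sc5d (0.03), Hsd17b7 (0.06), Insig2 (0.34) and Abca1 (0.36) missed the threshold. Leaving out each library in turn kept 8 of the 13 calls, and the count fell to 8 without GRKO non-PC library 2. The number of lower members fell to 7 without GRKO PC library 1 and to 6 without GRKO non-PC library 2 or 3. Sqle, Lss and Acaca each missed the threshold in 5 of the 6 fits, with adjusted p-values from edgeR of up to 0.396 for Sqle (without GRKO non-PC library 2), 0.269 for Lss (without library 3) and 0.276 for Acaca (without library 2). Scaling by library totals only moved the median of all genes to -1.05 here, with 31 members lower and none higher, and Acly then had a log2 fold change of -0.26. Here 8 of 9 enterocyte, 7 of 7 proliferation and 6 of 7 enteroendocrine markers were called lower in PCs, and 5 of 5 tuft markers tested were called higher. All 9 enterocyte and all 7 enteroendocrine markers had negative fold changes. The part of these markers in the difference was not tested.

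**Figure D3:**
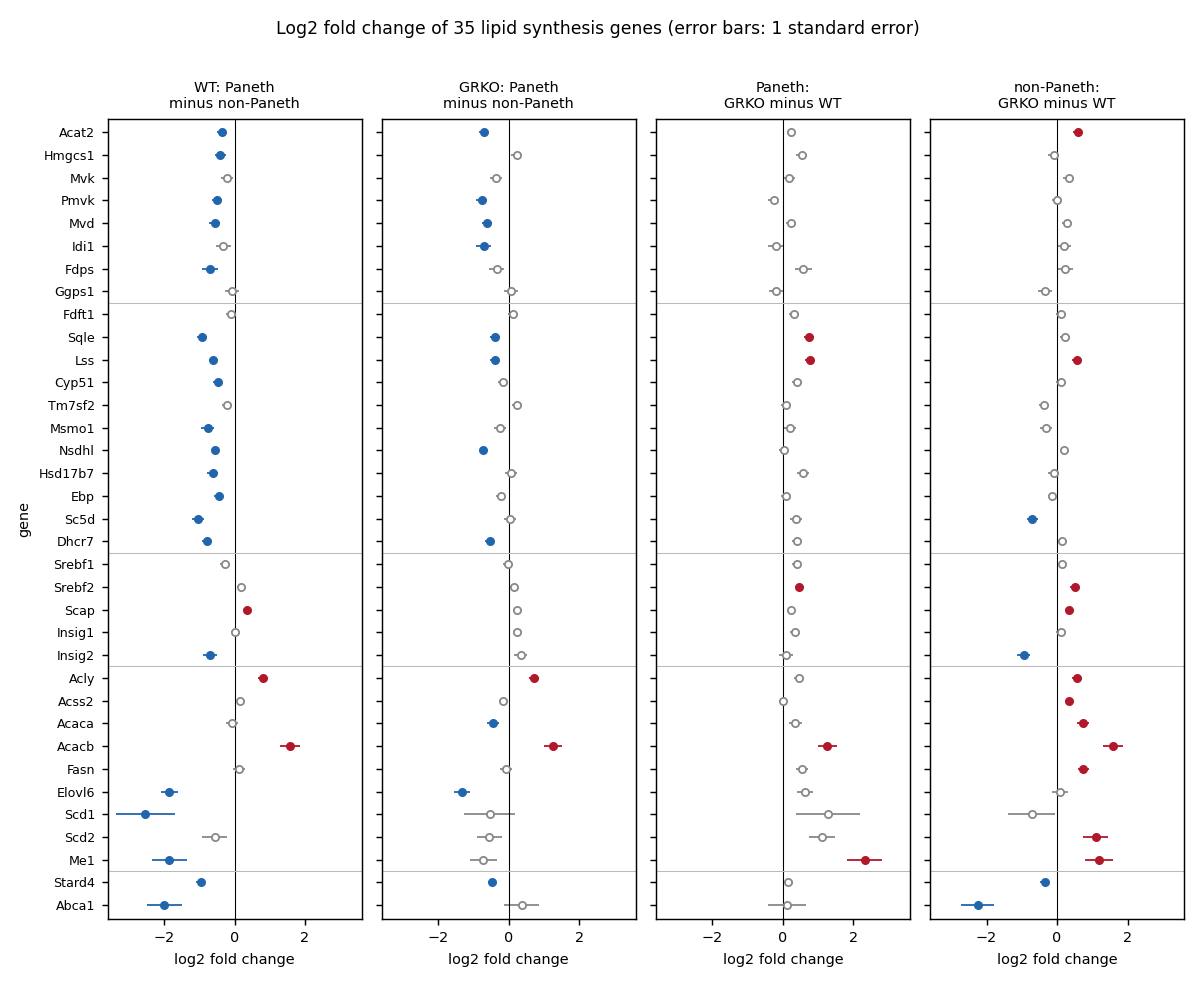
Log2 fold change of each of the 35 genes in the 4 comparisons of 2 groups, with bars of 1 standard error, and filled points, red for higher and blue for lower, for an adjusted p under 0.05 in edgeR. WT PCs against WT non-PCs has 20 blue and 3 red points, GRKO against WT PCs has 5 red points, and GRKO against WT non-PCs has 11 red and 4 blue points.

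In the non-PC fraction, GRKO mice had higher levels of most fatty acid synthesis genes and lower levels of Sc5d, Insig2, Stard4 and Abca1. Of the 35 members 11 were higher and 4 lower than in WT, against 17.5% and 19.8% of all genes tested, and the median was 0.15 against 0.02 over all genes. Of the 9 fatty acid synthesis genes 7 were higher and none was lower, with a median of 0.73. Of the 19 genes of the mevalonate and sterol steps, 2 were higher and 1 was lower.

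Along the path to fatty acids, Acly stood at 141, 161 and 126 CPM in GRKO non-PCs and at 97.7, 101 and 92.8 CPM in WT non-PCs (log2 fold change 0.56, SE 0.14, adjusted p = 0.00582, edgeR). Acss2, which makes acetyl-CoA from acetate, stood at 70.8, 70.9 and 85.6 CPM in GRKO and at 68.3, 59.3 and 53.1 CPM in WT non-PCs, a small difference (log2 fold change 0.33, SE 0.12, adjusted p = 0.042, edgeR). In Acaca the levels were 39.2, 41.9 and 34.7 CPM in GRKO and 23.0, 24.4 and 22.4 CPM in WT non-PCs (log2 fold change 0.73, SE 0.17, adjusted p = 0.00357, edgeR). The groups were apart in all 3 genes. Acacb, whose malonyl-CoA restrains fatty acid entry into mitochondria, rose 2.98-fold, from 4.33, 2.56 and 2.14 CPM in WT to 8.85, 9.14 and 8.70 CPM in GRKO non-PCs (log2 fold change 1.57, SE 0.28, adjusted p = 0.000667, edgeR). Fasn rose 1.68-fold, from 116, 128 and 124 CPM in WT to 228, 199 and 192 CPM in GRKO non-PCs (log2 fold change 0.75, SE 0.17, adjusted p = 0.00312, edgeR). The 3 GRKO libraries of either gene lay close together and above all WT libraries. Scd2, at chr19:44281613-44295303, stood at 321, 461 and 237 CPM in GRKO and at 138, 169.8 and 169.6 CPM in WT non-PCs (log2 fold change 1.09, SE 0.36, adjusted p = 0.0359, edgeR). All 3 GRKO libraries of Scd2 lay above the WT libraries but spread more widely than in Fasn. Me1, at chr9:86462646-86578104, stood at 15.7, 15.5 and 13.2 CPM in GRKO and at 5.41, 6.16 and 7.91 CPM in WT non-PCs (log2 fold change 1.19, SE 0.39, adjusted p = 0.0301, edgeR). Elovl6 (0.09) and Scd1 (-0.72) missed the threshold and their groups overlapped. Of the 3 genes whose promoters are shown above, Acaca and Acss2 were higher and Hmgcs1 had a log2 fold change of -0.10 (adjusted p = 0.661, edgeR).

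Among the sterol steps the fold changes went either way. Acat2 stood at 43.5, 45.6 and 50.5 CPM in GRKO and at 33.1, 28.8 and 31.2 CPM in WT non-PCs (log2 fold change 0.58, SE 0.12, adjusted p = 0.0017, edgeR). Lss, at chr10:76367298-76392976, stood at 45.5, 44.6 and 53.8 CPM in GRKO and at 35.8, 32.4 and 30.1 CPM in WT non-PCs (log2 fold change 0.55, SE 0.12, adjusted p = 0.00295, edgeR). Sc5d, in contrast, stood at 51.7, 50.1 and 56.9 CPM in GRKO and at 79.8, 91.8 and 85.9 CPM in WT non-PCs (log2 fold change -0.70, SE 0.17, adjusted p = 0.00409, edgeR). No groups overlapped in these 3 genes. The other 16 genes of these steps lay between -0.36 (Tm7sf2, adjusted p = 0.0571) and 0.33 (Mvk, adjusted p = 0.126) in edgeR.

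The regulators and transport genes were split as well. Srebf2, at chr15:82031382-82093201, stood at 182, 168 and 167 CPM in GRKO and at 119, 134 and 114 CPM in WT non-PCs (log2 fold change 0.50, SE 0.12, adjusted p = 0.00436, edgeR). Scap stood at 70.0, 63.5 and 62.5 CPM in GRKO and at 52.6, 51.3 and 50.2 CPM in WT non-PCs (log2 fold change 0.35, SE 0.11, adjusted p = 0.0243, edgeR). Insig2, the retention factor at chr1:121181760-121260400, fell to 17.1, 17.6 and 14.2 CPM in GRKO from 24.4, 36.3 and 33.7 CPM in WT non-PCs (log2 fold change -0.95, SE 0.19, adjusted p = 0.00132, edgeR). The genotypes were apart in all 3 genes. Srebf1 and Insig1, both themselves SREBP targets, had log2 fold changes of 0.15 and 0.11 and missed the threshold. Abca1, a target of the sterol-sensing LXR receptors, showed the largest change of all members in this fraction. It stood at 2.47, 2.43 and 3.79 CPM in GRKO and at 6.36, 12.3 and 22.8 CPM in WT non-PCs, 4.77-fold lower (log2 fold change -2.25, SE 0.47, adjusted p = 0.00296, edgeR). Stard4 stood at 137, 139.9 and 144 CPM in GRKO and at 174, 193 and 169 CPM in WT non-PCs (log2 fold change -0.35, SE 0.12, adjusted p = 0.0394, edgeR), and scaling by library totals only brought its log2 fold change to -0.06. Neither transport gene had overlapping genotypes.

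Leaving out each non-PC library in turn kept 9 of the 15 calls, those of Acat2, Lss, Sc5d, Srebf2, Insig2, Acaca, Acacb, Fasn and Abca1. Scap and Me1 missed the threshold in each of the 6 fits, with adjusted p-values of up to 0.144 (without GRKO non-PC library 1) and 0.114 (without WT non-PC library 1). Scd2 and Acss2 missed it in 5, with up to 0.153 (without GRKO non-PC library 2) and 0.316 (without GRKO non-PC library 3), Stard4 in 2, with up to 0.0793 (without WT non-PC library 2), and Acly in 1, with 0.0538 (without GRKO non-PC library 2). The number of higher members fell to 7 without WT non-PC library 2 or 3 or GRKO non-PC library 1, and to 6 without GRKO non-PC library 2. Scaling by library totals only moved the median of all genes to 0.31, with 19 members higher and 3 lower. Beside these changes, all 9 enterocyte markers had negative fold changes in GRKO non-PCs (median -1.91), 5 of them called lower, against 19.8% of all genes. Called higher were 7 of 7 proliferation markers, 4 of 5 stem markers and 5 of 5 tuft markers tested, against 17.5% of all genes. The fold changes of all 5 stem markers were positive. Their part in the changes of the members was not tested.

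**Figure D4:**
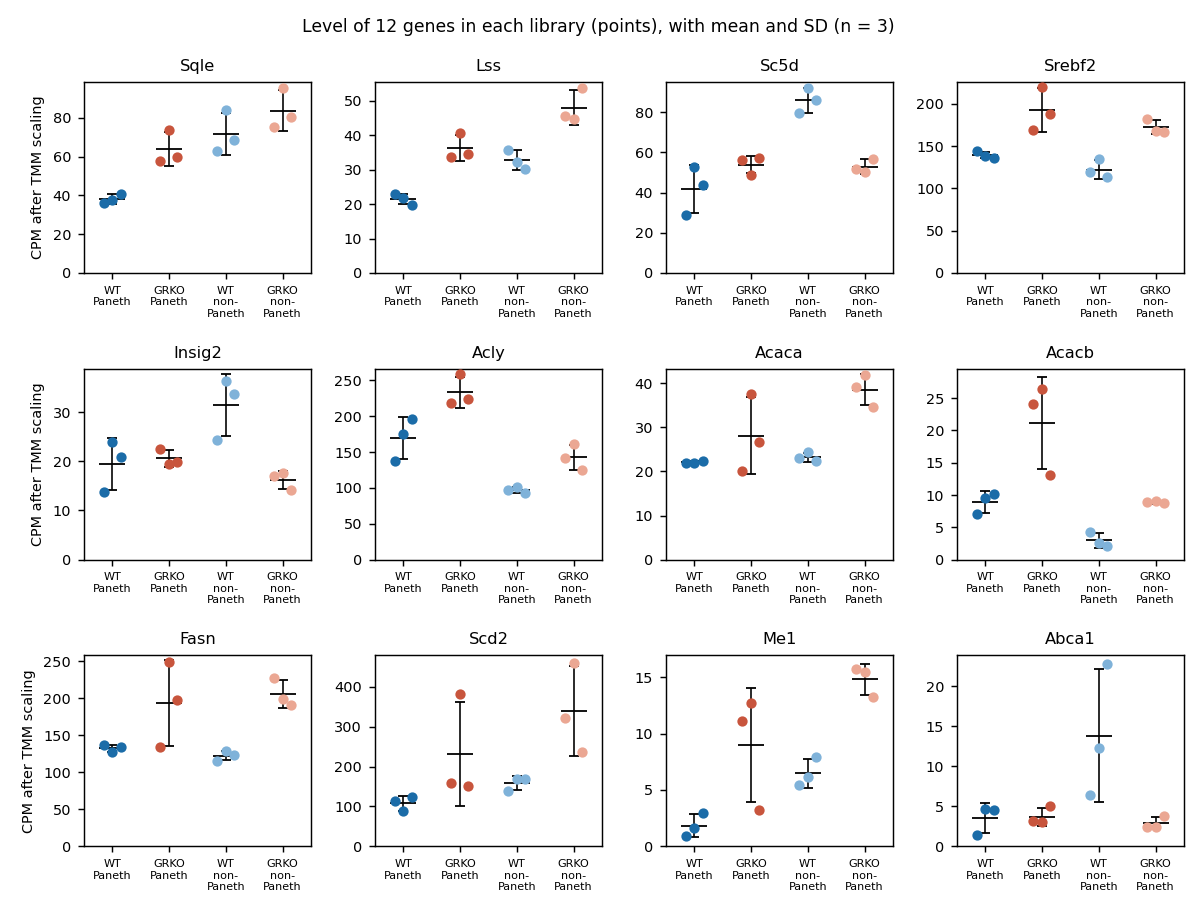
Level of 12 genes (CPM after TMM scaling, linear axis from 0) in each library, with a point per library and the mean and SD of the 3 libraries of each group. In non-PCs the GRKO points of Lss, Srebf2, Acly, Acaca, Acacb, Fasn, Scd2 and Me1 lie above all WT points and those of Sc5d, Insig2 and Abca1 below them, and in PCs the GRKO points of Sqle, Lss, Srebf2, Acly, Acacb, Scd2 and Me1 lie above all WT points.

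In the PCs the members leaned upward in GRKO mice, but few passed the test. Of 35 members 5 were higher than in WT PCs and none was lower, against 1.70% and 1.52% of all genes tested. The median was 0.36 against 0.03 over all genes, and 32 of 35 fold changes were positive, as were 53.0% of those of all genes. At an unadjusted p under 0.05, 18 members differed, as did 3491 of the 13057 genes. DESeq2 called 12 members, all higher, and 1465 of the 11931 genes it tested.

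Consecutive enzymes that turn squalene into lanosterol, Sqle and Lss, were among the 5. Sqle stood at 57.9, 74.0 and 59.6 CPM in GRKO and at 36.0, 37.9 and 40.7 CPM in WT PCs, 1.67-fold higher (log2 fold change 0.74, SE 0.14, adjusted p = 0.0409, edgeR). Lss, the next enzyme, stood at 33.7, 40.7 and 34.5 CPM in GRKO and at 22.9, 21.6 and 19.9 CPM in WT PCs, 1.69-fold higher (log2 fold change 0.76, SE 0.13, adjusted p = 0.0347, edgeR). Srebf2 stood at 169, 220.3 and 188 CPM in GRKO and at 144, 138 and 136 CPM in WT PCs (log2 fold change 0.47, SE 0.12, adjusted p = 0.0484, edgeR). Every GRKO library was above every WT library in these 3 genes. The same held in members that missed the threshold, among them Hmgcs1, Fdps, Elovl6 and Scd2, which adds no support to their differences. The share of all genes set apart in this way was not counted. Hsd17b7 (0.58, adjusted p = 0.0607), Hmgcs1 (0.53, adjusted p = 0.0652) and Acly (0.46, adjusted p = 0.0647) came closest to the threshold without passing it in edgeR.

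Acacb stood at 24.0, 26.4 and 13.1 CPM in GRKO and at 7.03, 9.52 and 10.2 CPM in WT PCs, 2.38-fold higher (log2 fold change 1.25, SE 0.27, adjusted p = 0.0448, edgeR). Me1 stood at 11.1, 12.7 and 3.22 CPM in GRKO and at 0.949, 1.61 and 2.96 CPM in WT PCs, 4.98-fold higher (log2 fold change 2.32, SE 0.49, adjusted p = 0.0448, edgeR). GRKO PC library 3 was the lowest of its group in both genes and lay just above the highest WT library. GRKO PC library 2, on the other hand, was the highest of its group in 18 of 35 members, and the share of all genes was not counted. Each tuft marker was likewise highest in library 2 and lowest in library 3 of the GRKO PCs. The part of tuft cells in these levels was not tested. Scd2 stood at 159.6, 383 and 152 CPM in GRKO and at 113, 87.7 and 123 CPM in WT PCs, and its difference missed the threshold (log2 fold change 1.10, SE 0.36, adjusted p = 0.0949, edgeR). Fasn stood at 134, 249 and 198 CPM in GRKO and at 137, 127 and 134 CPM in WT PCs, where library 1 overlapped the WT libraries (log2 fold change 0.55, SE 0.17, adjusted p = 0.0721, edgeR). Acaca behaved likewise, with 20.2, 37.5 and 26.7 CPM in GRKO and 21.8, 21.9 and 22.5 CPM in WT PCs (log2 fold change 0.36, SE 0.18, adjusted p = 0.21, edgeR).

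None of the 5 calls in PCs was made in every fit with a library left out. No member was called in edgeR without WT PC library 1 or without GRKO PC library 2, where 18 and 14 members had an unadjusted p under 0.05. So did 2451 of 13361 and 2062 of 13320 genes in these fits. Of the members 1 was called without WT PC library 2 (Lss) and 3 without GRKO PC library 3, whereas 11 were called without GRKO PC library 1. The calls over the whole table moved alike, from 420 genes to 1 without WT PC library 1, 0 without GRKO PC library 2, 86 without WT PC library 2, 41 without GRKO PC library 3 and 1618 without GRKO PC library 1. The adjusted p-values then reached 0.224 for Sqle, Acacb and Me1, 0.217 for Lss and 0.238 for Srebf2, in each case without GRKO PC library 2. No member passed when only the 2 PC groups were fitted, and no gene in the table did. There 12 members had an unadjusted p under 0.05 in edgeR, as did 2341 of 11924 genes. Likewise, no member passed when libraries were scaled by their totals, where 2 genes of the table passed. The fold changes of the 5 members kept their sign in all of these fits, between 0.36 and 2.84 on the log2 scale. The 5 tuft markers tested were 2.26 to 3.71 times as high in GRKO as in WT PCs without passing the test, and the stem markers had negative fold changes for 5 of 5 genes, none past the threshold. Their part in these values was not tested.

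The difference between the genotype effects of the 2 fractions was tested directly. It was called for 3 of 35 members, each with a higher value in PCs, and for none in the other direction, against 11.5% and 7.28% of all genes tested. Sc5d had a fold change of 0.37 on the log2 scale in PCs and of -0.70 in non-PCs, a difference of 1.07 (SE 0.24, adjusted p = 0.0069, edgeR). Insig2 had 0.09 in PCs and -0.95 in non-PCs, a difference of 1.04 (SE 0.27, adjusted p = 0.0174, edgeR). Abca1 had 0.11 in PCs and -2.25 in non-PCs, a difference of 2.36 (SE 0.71, adjusted p = 0.038, edgeR). In PCs the levels of these genes overlapped between genotypes, with 3.14, 3.00 and 5.01 CPM of Abca1 in GRKO and 1.42, 4.70 and 4.50 CPM in WT, 22.6, 19.4 and 19.8 CPM of Insig2 in GRKO and 13.7, 23.9 and 20.8 CPM in WT, and 55.9, 48.8 and 56.9 CPM of Sc5d in GRKO and 28.8, 52.8 and 43.8 CPM in WT. The calls of Sc5d and Insig2 were made in all 12 fits with a library left out. That of Abca1 was lost in 9 of them, with an adjusted p of up to 0.1 in edgeR without GRKO PC library 3. Without GRKO PC library 2, Acaca was called lower, and 5 members were called higher without WT PC library 2 or GRKO PC library 1. For the 7 fatty acid genes that rose in GRKO non-PCs no difference between the fractions was called in the main fit. The values were -0.38 for Acaca, -0.32 for Acacb, -0.32 for Acss2, -0.20 for Fasn, -0.09 for Acly, 0.01 for Scd2 and 1.13 for Me1. Their standard errors were 0.24, 0.39, 0.17, 0.24, 0.195, 0.50 and 0.63, in this order. Me1 was called higher without GRKO PC library 3 and without a filter on low counts. A missed threshold does not show that the effects were alike.

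**Figure D5:**
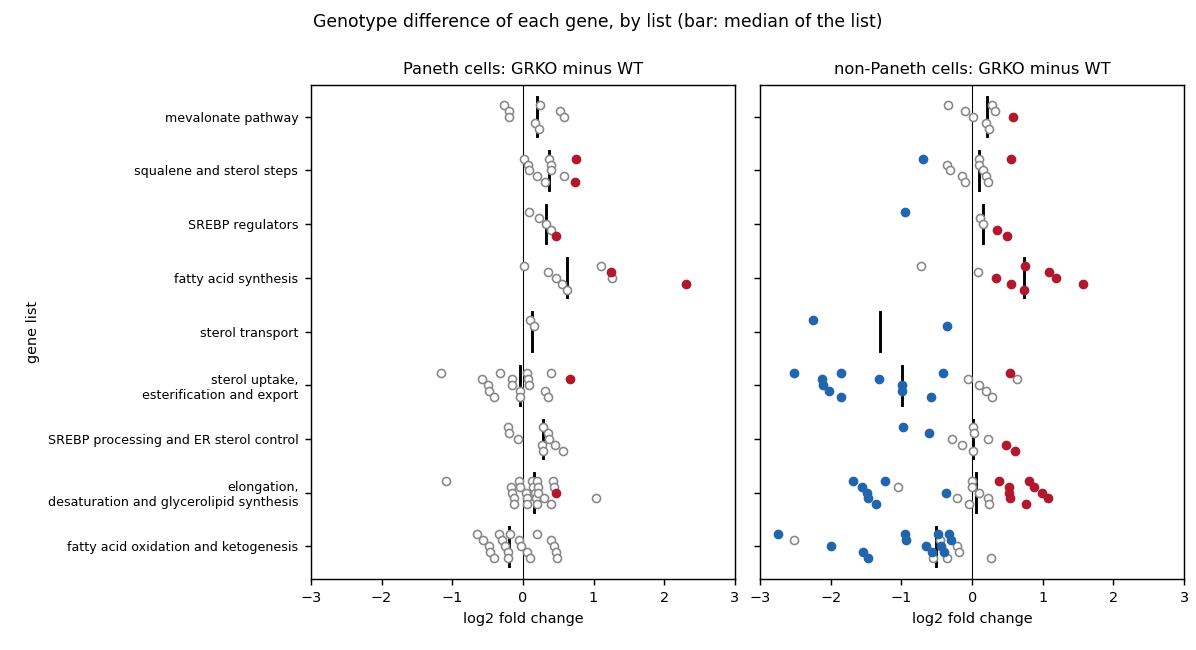
Log2 fold change of GRKO over WT for each gene in PCs (left) and non-PCs (right), by list, with filled points for an adjusted p under 0.05 in edgeR (red higher, blue lower) and a bar at the median of the list. In non-PCs fatty acid synthesis has 7 red points of 9, while sterol uptake, esterification and export has 11 blue points of 17 and fatty acid oxidation has 13 blue points of 20.

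Other genes of lipid handling were given by 4 further lists. Of 17 genes of sterol uptake, esterification and export, 11 were lower and 1 was higher in GRKO non-PCs, against 19.8% and 17.5% of all genes tested, with a median of -0.99. The largest changes were in the sterol hydroxylase Cyp27a1 (-2.52), the sterol exporters Abcg5 (-2.12) and Abcg8 (-2.11), the cholesterol esterifying enzyme Soat2 (-2.02) and the cholesterol importer Npc1l1 (-1.86). In WT PCs 10 of the 17 were lower than in WT non-PCs and 3 were higher, against 26.7% and 24.0% of all genes, with Npc1l1 at -5.44 and Soat2 at -3.81. The oxysterol-binding protein Osbp (0.66, adjusted p = 0.0448, edgeR) was the only gene of the list called between GRKO and WT PCs.

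Fatty acid oxidation and ketogenesis went the opposite way to synthesis in the non-PCs. Of 20 genes 13 were lower in GRKO non-PCs and none was higher, against the same 19.8% and 17.5% of all genes, with a median of -0.52, among them the peroxisomal thiolase Acaa1b (-2.75), the lipase inhibitor Angptl4 (-1.99) and the coactivator Ppargc1a (-1.47). In WT PCs 15 of the 20 were lower than in WT non-PCs (26.7% of all genes), none was higher, and all 20 fold changes were negative. Between GRKO and WT PCs no gene of the list was called in edgeR, and 4 had an unadjusted p under 0.05, as did 3491 of all 13057 genes.

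Elongation, desaturation and glycerolipid synthesis was split in GRKO non-PCs, with 9 genes higher and 7 lower of the 24 tested, against 17.5% and 19.8% of all genes. The triglyceride enzymes Dgat2 (-1.69), Lpin2 (-1.55), Dgat1 (-1.49) and Lpin3 (-1.48) were lower. The desaturases of polyunsaturated fatty acids Fads1 (1.07) and Fads2 (0.81), named after their values were seen, were higher. Mid1ip1, which activates acetyl-CoA carboxylase, was the only gene of this list called in GRKO against WT PCs (0.48, adjusted p = 0.0469, edgeR). Of 10 genes of SREBP processing and sterol control in the endoplasmic reticulum, 2 were higher and 2 lower in GRKO non-PCs, near these shares of all genes, with Tmem97 (0.60) among the higher and Pgrmc1 (-0.97) and Erlin1 (-0.60) the lower. The same non-PC libraries carry the shift in enterocyte, proliferation and tuft markers given above, whose part in these lists was not tested.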

How the data were processed

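RNA of sorted PCs and non-PCs was sequenced in 12 libraries. Per the labels and methods, stranded TruSeq libraries were read single-end, trimmed with Trimmomatic 0.39 and aligned to mm39 with STAR 2.7.10a. The deposited values are raw counts of reads per gene from STAR. The authors counted no read that fits several places or genes, and the sources used here give no strand setting. Groups were taken from the sample titles, since the genotype field of the labels follows the fraction instead. Names came from GENCODE vM39 and matched 54749 of the 55414 identifiers (98.8%).

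All 12 libraries entered 1 fit in edgeR 4.0.16 (R 4.3.3; TMM scaling, filterByExpr, robust quasi-likelihood test, Benjamini-Hochberg adjustment at 5%), without covariates. The authors used DESeq2 (here 1.42.0) at the same rate. The pipeline was tested on simulated data. Levels are CPM after TMM scaling, per kilobase of merged exons only between genes. Library totals of 11126297 to 15910292 counts limit the precision of genes at a few CPM most, such as Scd1, Abca1 and Me1. Alternatives were other scaling (RLE factors, library totals, Lyz1 and Defa genes left out), other filters, only the groups compared, a replicate block, DESeq2, a rate of 1% and each library left out.

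The members and lists were chosen with earlier results of these data known. Values per library are given for members called between genotypes in either fraction or in the test of the difference, and for the largest differences between the WT fractions (at most 5 in each direction). Whether the libraries of 2 groups overlapped describes the genes named, called or not, and adds no support to a difference. The share of all genes without overlap was not counted. From each further list at most 5 called genes with the largest fold change were named, and some items are not reported here. Same-numbered libraries of WT PCs and non-PCs deviated together (correlations of 0.349, 0.229 and 0.238), while those of GRKO mice gave 0.0129, 0.262 and 0.465. The main fit used no pairing, so its comparisons of fractions leave such shared deviations out of account. For fractions and for the difference between genotype effects, the replicate block treated same-numbered libraries as pairs in both genotypes. Between genotypes it used the number alone. Whether libraries came from separate mice is not stated, so p-values measure only the spread between libraries.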

Additional observations from a re-analysis of the deposited data

Results flagged for a closer look

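The genotype difference in PCs minus that in non-PCs, tested in edgeR as the interaction of genotype and fraction, differed from 0 for the 19 genes given here (adjusted p under 0.05). Among all genes tested, 11.5% had a difference called higher in PCs and 7.28% one called lower. Among the members they were Sc5d (1.07 on the log2 scale), Insig2 (1.04) and Abca1 (2.36). In sterol uptake, esterification and export they were the lysosomal lipase Lipa (1.95), Abcg5 (1.62), Soat2 (1.54), Abcg8 (1.54) and the ubiquitin ligase Mylip (1.38). In SREBP processing and sterol control they were Erlin1 (0.96), Pgrmc1 (0.77) and, in the opposite direction, Tmem97 (-0.80). In glycerolipid synthesis they were Lpin2 (1.73), Lpin3 (1.68), Dgat2 (1.63), the acyltransferase Agpat2 (1.43) and Dgat1 (1.34). In fatty acid oxidation they were the mitochondrial carnitine carrier Slc25a20 (1.38), Ehhadh (1.15) and Ppargc1a (1.07). From each further list at most the 5 largest called differences are given. The lists held 6 called higher and 0 lower of 17, 2 and 1 of 10, 7 and 3 of 24 tested, and 4 and 0 of 20, in this order. Without GRKO PC library 2 the calls of Abca1 (adjusted p = 0.0635), Mylip (0.0832), Slc25a20 (0.0718) and Ppargc1a (0.147) were lost in edgeR, and each of them was also lost in some fits without another library. The enterocyte markers had a positive difference for 9 of 9 genes, 3 of them called, with a median of 1.19, and their part in these values was not tested.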

How the results depend on the processing

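Scaling by library totals only gave negative log2 fold changes to Scap (-0.35) and Tmem97 (-0.39) between the WT fractions and to Acly (-0.26) between the GRKO fractions, all positive under TMM scaling, whose factors were 0.656 to 0.826 in PCs and at least 1.20 in non-PCs. Under it 1 member was higher and 32 lower between the WT fractions, 0 higher and 31 lower (31 in all) between the GRKO fractions, 0 differed between GRKO and WT PCs, and 19 were higher in GRKO non-PCs. Of all 13057 genes, 8989, 10784, 2 and 5826 were called in these comparisons, in the same order. Between the GRKO fractions 4 members were higher with at least 10 counts in every library of a group, 5 were higher when only these groups were fitted, and 7 were lower at a false discovery rate of 1%. The fits with at least 10 counts and with only these groups called 4761 of 12452 and 4926 of 12527 genes. In PCs, GRKO against WT called 12 members without a filter on low counts, 12 in DESeq2, 8 with the replicate block, 0 with only these groups and 0 at a rate of 1%, all higher. Over all genes the calls were 1780 of 24077 without the filter, 1465 of 11931 in DESeq2, 977 of 13057 with the block and 0 of 11924 with only these groups. At 1%, 7 members were higher in GRKO non-PCs. The genes called at 1% over the whole table were not counted in any comparison. The difference between the genotype effects was called for 6 members with RLE factors, 6 without a filter, 6 with at least 10 counts, 7 with the replicate block, 7 in DESeq2 and 1 at 1%, all higher. Over all genes it was called for 2510 of 13057 with RLE factors, 2671 of 24077 without a filter and 2523 of 12749 with at least 10 counts. With the replicate block it was called for 2977 of 13057 genes and in DESeq2 for 3024 of 12398. The cause of these shifts was not tested.

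When single libraries were left out, the members called ranged from 8 to 14 between the GRKO fractions (6 to 12 lower), from 0 to 11 between GRKO and WT PCs, all higher, from 6 to 8 higher in GRKO non-PCs, and from 2 to 5 for the difference between genotype effects (2 to 5 higher, 0 to 1 lower). The genes called in either direction ranged from 3981 to 4606, 0 to 1618, 3636 to 4264 and 1563 to 2607 in the same order, of 13285 to 13379 tested. Over all alternatives, the fold changes of called members kept their direction and call in 698 fits, lost the call in 141 and changed sign in 2. Those of the further lists did so in 1011, 62 and 1. Between the WT fractions, where same-numbered libraries deviated together, the replicate block called 3 members higher and 21 lower, and 6950 of the 13057 genes. Across genotypes libraries share only a number, with correlations of same-numbered libraries within a fraction of -0.098 to 0.166.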

Other observations

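Markers of other cells of the crypt and its surroundings were measured in the same libraries. The 6 goblet markers summed to 9938 to 16310 CPM in PCs and to 5716 to 14570 CPM in non-PCs. Most of the PC sum was Spink4, with a mean of 8321 CPM in WT PCs and 266 CPM in WT non-PCs. Between the WT fractions 1 goblet marker was called higher in PCs and 3 lower, against 24.0% and 26.7% of all genes. The median log2 fold change of these markers was -1.58. The 7 enteroendocrine markers summed to 85.6 to 173 CPM in PCs and to 178 to 549 CPM in non-PCs. The 6 immune markers summed to 773 to 1046 CPM in WT PCs, 175 to 683 CPM in GRKO PCs, 2053 to 2228 CPM in WT non-PCs and 325 to 1231 CPM in GRKO non-PCs. Nearly all of each sum was Cd74, with means of 888, 470, 2136 and 893 CPM in this order. Ptprc went the other way between genotypes, with means of 3.35, 16.6, 0.295 and 3.23 CPM and wide spread in GRKO PCs (2.08 to 28.7 CPM). Itgam stayed at 4.53 CPM or less, and Cd3e, Cd79a and Cd52 at 0.742 CPM or less. The 5 stromal, endothelial and erythroid markers summed to 0.700 CPM at most, and Hba-a1 had no counts in any library.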
